A study of Mus musculus with 9 samples.

Results

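Of 9 chemokine ligand genes chosen by symbol, 7 were analysed in mouse CD8+ T cell RNA: Ccl3, Ccl4, Ccl5, Ccl22, Cxcl2, Cxcl9 and Cxcl16. They are 7 of 18188 genes listed in each library. Xcl1 and Cxcl10 were not analysed here. The libraries were poly(A)-selected RNA of cells labelled CD8+ T cells from mouse spleens, 5 of genotype WT and 4 of genotype Rig1 KO. Rig1 is the gene for RIG-I, a cytosolic sensor of viral RNA, and per the study's title it acts as a checkpoint inside CD8+ T cells that restrains their response to tumours. The sources used here do not give strain, age, treatment, tumour status, how the knockout was made or how the cells were purified. Nothing says that the numbered libraries come from different animals, so every p-value below reflects library-to-library variation that could be technical.

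Chemokines are small secreted proteins that bind G protein-coupled receptors on leukocytes and direct their migration. Activated and memory CD8+ T cells are known sources of Ccl3, Ccl4, Ccl5 and Xcl1, which attract monocytes, dendritic cells, natural killer (NK) cells and other T cells. Cxcl9 and Cxcl10 are interferon-gamma targets made mainly by myeloid cells, and Cxcl2, Cxcl16 and Ccl22 are also best known from myeloid cells.

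Reads assigned to genes were recovered from the TPM values (reads divided by gene length and scaled to a sum of 1e+06 in each library). The recovered totals were 15496262 to 17893558 per library. They are lower bounds, since the smallest whole numbers that fit each gene were taken. The TPM values were built on gene length with introns included, so TPM levels are not compared between genes here. The gene for RIG-I, listed as Ddx58, had 65.1 ± 2.0 TPM (SD, n = 5) in the WT group and 33.3 ± 2.04 (SD, n = 4) in the knockout group. It fell by 0.95 on the log2 scale (limma adjusted p = 4.91e-07) and was not at 0 in any library. The CD8 T cell markers Cd3e, Cd8a and Cd8b1 were above 0 in every library, and the 7 markers of that list that were found summed to between 3596 and 4170 TPM in WT and between 4992 and 5554 in Rig1 KO. Markers of other cells were also present. The 6 B and plasma cell markers found summed to 199 to 1144 TPM in WT, highest in WT 5, and to 221 to 332 in Rig1 KO. The 12 macrophage and monocyte markers summed to 1570 to 2573 TPM in WT and to 3226 to 3529 in Rig1 KO. Ly6c2, which memory CD8+ T cells also transcribe, made up 719.9 to 953 TPM of the former and 1342 to 1784 of the latter, and 9 of the 12 did not pass the test. The 6 platelet markers found summed to 197 to 266 TPM in WT and to 45.7 to 52.8 in Rig1 KO. In bulk RNA, fewer cells of a type and less RNA per cell cannot be told apart.

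Ccl5 rose in the Rig1 KO libraries, Cxcl2 and Cxcl16 fell, and Ccl3, Ccl4 and Cxcl9 did not pass the test. Thus 1 of 6 tested ligands was higher and 2 were lower at a limma adjusted p under 0.05. Of all 10540 tested genes, 45.7% passed, with 33.5% higher and 12.2% lower in Rig1 KO. With so many genes called, 3 of 6 is near the background share. After median ratio scaling the 3526 higher and 1291 lower genes became 2381 and 2384, and the same ligands were called. The median log2 fold change was -0.31 over the 6 ligands and 0.13 over all tested genes. The TPM values of the groups did not overlap for Ccl5 and Cxcl2, 2 of the 6 tested ligands, against 38.1% of all tested genes. Ccl22 missed the filter of 1 TPM in at least 4 libraries and was examined on its own.

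**Figure D1:**
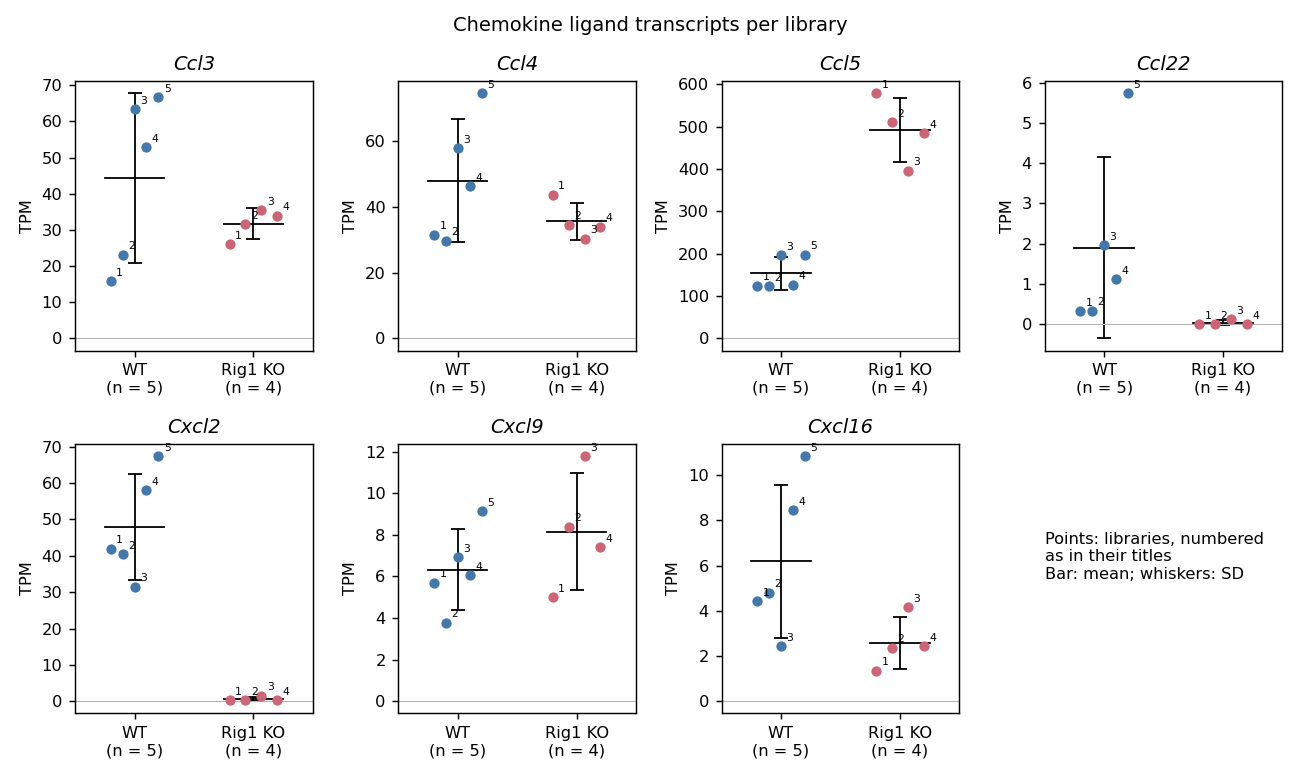
TPM of the 7 chemokine ligands (vertical axis, linear, a scale per gene) in 5 WT and 4 Rig1 KO libraries, 1 point per library, numbered as in the titles, with the mean as a bar and the SD as whiskers. The Rig1 KO points of Ccl5 (396 to 579 TPM) lie above all WT points, those of Cxcl2 (0.302 to 1.51 TPM) lie below all WT points, and the groups overlap for Ccl3, Ccl4, Cxcl9 and Cxcl16.

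The sequences of Cxcl2 are shown first, because it had the largest log2 fold change of the 6 tested ligands. RefSeq gives the 250 bases before the start of Cxcl2 on the plus strand of GRCm38.p6 at chr5:90903649-90903898. It gives those of Cxcl9, shown beside it as a CXC ligand that did not pass the test, on the minus strand at chr5:92328080-92328329. Both are printed 5′ to 3′, with matches in capitals to an NF-kB motif (GGG and TTCC with 2 or 3 other bases between them) or an ISRE, an interferon response motif (GAAANNGAA), on either strand.
Cxcl2: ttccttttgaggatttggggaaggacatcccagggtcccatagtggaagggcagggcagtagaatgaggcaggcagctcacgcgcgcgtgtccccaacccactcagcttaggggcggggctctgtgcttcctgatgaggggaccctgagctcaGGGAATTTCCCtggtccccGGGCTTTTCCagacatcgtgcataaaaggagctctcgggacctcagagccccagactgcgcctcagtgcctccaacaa
Cxcl9: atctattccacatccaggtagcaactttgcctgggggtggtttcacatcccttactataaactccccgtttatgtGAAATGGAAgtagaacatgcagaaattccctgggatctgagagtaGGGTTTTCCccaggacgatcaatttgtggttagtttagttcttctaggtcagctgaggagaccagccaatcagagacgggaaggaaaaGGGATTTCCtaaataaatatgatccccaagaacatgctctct

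The Cxcl2 window held 3 NF-kB matches. Counted from the transcription start they began at -97, -96 and -78. The first pair overlapped, 1 on each strand of a single stretch, so the matches lay in 2 separate stretches, as in Cxcl9. The Cxcl2 window held no ISRE match. Cxcl9 held 2 NF-kB matches, at -130 and -42, and 1 ISRE match at -175. The Ccl3 window held 1 ISRE match, and the Ccl22 window held no match. Of 32851 promoter windows of 250 bases, 8.26% held the NF-kB motif and 7.13% the ISRE. No window held the AP-1 motif TGANTCA or the interferon motif GAS (TTCNNNGAA), which 6.75% and 7.02% of all windows held. The letters of the motifs were chosen after these sequences had been seen, and a match describes letters, not a bound site.

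AU-rich elements, repeats of ATTTA in the 3′ untranslated region (UTR), are known to shorten the life of cytokine and chemokine mRNAs. In the transcripts of the GENCODE M21 annotation (GRCm38), Cxcl2 held 11 ATTTA in 734 bases of 3′ UTR, and 7 of the longer form TATTTAT. Among 1177 genes with a 3′ UTR within 20% of that length, the median was 1, and 0.0850% had as many, which is Cxcl2 alone. Ccl3 held 5 in 409 bases, a count reached by 0.786% of 891 such genes. Cxcl9 held 3, Ccl4, Cxcl16 and Ccl22 held 2 each, and Ccl5 held 0. The 30 bases richest in ATTTA (capitals) are shown for the 2 ligands with the most.
Cxcl2: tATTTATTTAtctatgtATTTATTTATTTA
Ccl3: gactcttcacttgaaattttATTTAATTTA

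Ccl5, also called RANTES, attracts T cells, monocytes and other cells, and its receptors include Ccr1 and Ccr3. WT 1 to WT 5 had 125, 123, 196, 127 and 198 TPM, and Rig1 KO 1 to 4 had 579, 511, 396 and 484. Every Rig1 KO library lay above every WT library. The means were 154 ± 39.6 TPM (SD, n = 5) and 493 ± 75.7 (SD, n = 4), a ratio of 3.20. Ccl5 rose by 1.69 on the log2 scale (SE 0.17, 95% interval 1.31 to 2.08, limma adjusted p = 2.88e-05). The exact permutation test over all ways to choose 4 of 9 libraries gave two-sided p = 0.00794, the smallest it can give. Each value rested on 849 to 4399 reads. With the mean of the macrophage and monocyte markers as a covariate, the change was 1.5. This alternative was chosen after seeing the data, and the groups did not overlap in that mean. NK cells also transcribe Ccl5, and 6 of 10 NK and innate lymphoid markers were higher in Rig1 KO, against 33.5% of all tested genes. None of these markers was lower. Their summed TPM was 96.7 to 236 in WT and 228 to 280 in Rig1 KO. Of 7 tested CD8 T cell markers, 7 were higher, or 3 after median ratio scaling. The part of either list in the result was not tested.

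Ccl3 and Ccl4, also called MIP-1 alpha and MIP-1 beta, are genes of related CC chemokines on chromosome 11. Ccl3 had 15.8, 23.1, 63.3, 52.8 and 66.7 TPM in WT 1 to WT 5 and 26.0, 31.6, 35.5 and 34.0 in Rig1 KO 1 to 4. Ccl4 had 31.5, 29.7, 57.9, 46.3 and 74.6 TPM in WT 1 to WT 5 and 43.7, 34.6, 30.4 and 33.9 in Rig1 KO 1 to 4. For Ccl3 all Rig1 KO values fell between the 2 lowest and the 3 highest WT libraries, so that WT 1 and WT 2 were below and WT 3 to WT 5 above. For Ccl4 WT 1 and WT 2 were again the lowest WT libraries. The Ccl3 log2 fold change was -0.27 (SE 0.38, 95% interval -1.13 to 0.58, limma adjusted p = 0.583, exact permutation p = 0.310). That of Ccl4 was -0.35 (SE 0.24, 95% interval -0.89 to 0.20, limma adjusted p = 0.270, exact permutation p = 0.286).

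The WT spread of both genes moved with macrophage and monocyte markers and with NK markers, and NK cells are also known makers of both. The summed NK and innate lymphoid markers were 96.7, 121, 161, 178 and 236 TPM in WT 1 to WT 5. The summed macrophage and monocyte markers were lowest in WT 1 (1570 TPM) and WT 2 (1950 TPM) and reached 2358, 2573 and 2530 in WT 3, WT 4 and WT 5. Of these 12 markers, 3 were higher in Rig1 KO, against 33.5% of all tested genes, and none was lower. Without WT 4 and WT 5, 10 were higher and none lower, against 3651 higher of 10540 tested genes. Csf1r, Adgre1 and C1qa were above 0 in every library. With the mean of the 12 markers as a covariate, the log2 fold change was -1.17 for Ccl3 (limma adjusted p = 0.000137) and -0.79 for Ccl4 (limma adjusted p = 0.0162). This covariate was chosen after the values of Ccl3 and of these markers had been seen. It was 6.01 to 7.01 on the log2 scale in WT and 7.02 to 7.19 in Rig1 KO. With no overlap between the groups, these fits extend a trend beyond the libraries of each group. Without WT 4 and WT 5, and with no covariate, the log2 fold change was 0.14 for Ccl3 (limma adjusted p = 0.785). The direction and call of Ccl3 thus differed between fits. The part of NK cells was not tested.

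Ratios of TPM within a library do not depend on how libraries are scaled. Their size depends on the gene lengths used, and only their differences between groups are read here. The log2 ratio of Ccl3 to Ccl4 was -0.24 ± 0.48 over the WT libraries (SD, n = 5) and -0.16 ± 0.42 over the knockout libraries (SD, n = 4), a difference of 0.08 (exact permutation p = 0.794). The log2 ratio of Ccl5 to Ccl4 was 1.73 ± 0.29 over the WT libraries (SD, n = 5) and 3.79 ± 0.085 over the knockout libraries (SD, n = 4). It was 1.99, 2.05, 1.76, 1.46 and 1.41 in WT 1 to WT 5 and 3.73, 3.88, 3.70 and 3.83 in Rig1 KO 1 to 4, with no overlap. The difference of 2.05 had an exact permutation p of 0.00794, or 0.0159 adjusted over the 2 ratios. Of these 3 CC ligands, Ccl5 alone passed the test with TPM as deposited, and its ratio to Ccl4 was higher in each of the 4 Rig1 KO libraries than in any WT library.

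Cxcl2, a ligand of Cxcr2 that draws neutrophils into tissue, fell to a few reads in the Rig1 KO libraries. WT 1 to WT 5 had 42.0, 40.5, 31.5, 58.1 and 67.4 TPM, and Rig1 KO 1 to 4 had 0.302, 0.325, 1.51 and 0.371. Those values stand for 131, 122, 98, 194 and 195 reads in WT and for 1, 1, 4 and 1 reads in Rig1 KO. The groups were far apart, and 3 of 4 Rig1 KO libraries held a single read. The means were 47.9 ± 14.5 TPM (SD, n = 5) and 0.626 ± 0.587 (SD, n = 4). The pooled WT count of 740 was 84.0 times the pooled Rig1 KO count of 7 per 1e+06 reads, with a 95% interval of 40.6 to 209.6 that covers counting error only. Cxcl2 fell by 4.92 on the log2(TPM + 1) scale (SE 0.25, limma adjusted p = 1.82e-07, exact permutation p = 0.00794). On that scale the added 1 sets much of the size, and with 0.1 added in its place the change was -6.27. The coding sequence of Cxcl2 is 89.7% identical to that of Cxcl3 and 75.7% to that of Cxcl1, so reads could be shared between them. Cxcl3 held 1 read in WT and 1 in Rig1 KO in all, and Cxcl1 held 10 and 0.

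Macrophages, monocytes and neutrophils are known to make Cxcl2, and their markers are given beside it. None of the 12 macrophage and monocyte markers was lower in Rig1 KO. Of 9 tested neutrophil markers, 2 were lower, S100a8 (log2 fold change -1.27) and S100a9 (-1.28), and 2 were higher, Mpo (1.80) and Elane (1.48). The other 5 did not pass, each with a negative log2 fold change. The median over the 9 was -0.69, against 0.13 over all tested genes. Of all tested genes, 12.2% were lower and 33.5% higher. The summed neutrophil markers were 124 to 650 TPM in WT and 201 to 285 in Rig1 KO. With the mean of the B cell markers as a covariate, the Cxcl2 change was -4.17. Only Rig1 KO 3 lay within the WT range of that mean.

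Cxcl16 is made as a membrane-bound chemokine and is shed by Adam10 to attract cells with Cxcr6. WT 1 to WT 5 had 4.41, 4.80, 2.44, 8.46 and 10.8 TPM, and Rig1 KO 1 to 4 had 1.35, 2.36, 4.15 and 2.43. WT 3 lay among the Rig1 KO libraries, Rig1 KO 3 lay above it, and WT 4 and WT 5 were the highest. The means were 6.19 ± 3.39 TPM (SD, n = 5) and 2.57 ± 1.16 (SD, n = 4). Cxcl16 fell by 0.93 on the log2 scale (SE 0.34, limma adjusted p = 0.0446). The exact permutation p was 0.0635, and 0.0397 after median ratio scaling. The limma call was lost when WT 1, WT 2, WT 4, WT 5, Rig1 KO 1, Rig1 KO 2 or Rig1 KO 4 was left out (adjusted p 0.0516 to 0.122), and was kept without WT 3 or Rig1 KO 3.

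The B cell and neutrophil markers moved with Cxcl16. WT 4 and WT 5, highest in Cxcl16, also held the highest summed B and plasma cell markers, 535 and 1144 TPM, and WT 3, lowest in WT, held the lowest, 199 TPM. The summed neutrophil markers were 273, 248, 124, 421 and 650 TPM in WT 1 to WT 5, again lowest in WT 3 and highest in WT 4 and WT 5. Of 6 tested B and plasma cell markers, 4 were lower in Rig1 KO, against 12.2% of all tested genes, and 1, Jchain, was higher. With the mean of these markers as a covariate, the Cxcl16 log2 fold change was 0.14 (limma adjusted p = 0.635). That mean was 4.52 to 6.92 on the log2 scale in WT and 4.03, 4.09, 5.02 and 4.06 in Rig1 KO 1 to 4. Only Rig1 KO 3 lay within the WT range, so the fit cannot well separate these markers from the genotype. The part of B cells and that of neutrophils in the result were not tested. Cxcl16 overlaps Zmynd15 on the other strand in GENCODE M21, and reads of the pair cannot be told apart, because the sources used here do not give the strand setting of the counting.

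Cxcl9, induced by interferon-gamma and a ligand of Cxcr3, had 5.71, 3.77, 6.91, 6.07 and 9.14 TPM in WT 1 to WT 5 and 5.01, 8.40, 11.8 and 7.40 in Rig1 KO 1 to 4. The groups overlapped over most of their range. The log2 fold change was 0.31 (SE 0.24, 95% interval -0.21 to 0.84, limma adjusted p = 0.302, exact permutation p = 0.302). It lay between 0.011 and 0.67 under the other settings and did not pass the test under any of them.

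Ccl22, a ligand of Ccr4 made by dendritic cells and macrophages, was at the limit of detection in Rig1 KO. WT 1 to WT 5 had 0.325, 0.337, 1.96, 1.11 and 5.74 TPM (3, 3, 18, 11 and 49 reads). Rig1 KO 3 had 0.127 TPM, from 1 read, and Rig1 KO 1, 2 and 4 were at 0, where a count of 0 allows up to 3 reads, or 0.306, 0.330 and 0.376 TPM. All WT libraries were above all Rig1 KO libraries, but WT 1 and WT 2, at 3 reads each, were at the size of that limit. The pooled ratio of 84 reads to 1 was 66.7 per 1e+06 reads, with a 95% counting interval of 11.7 to 2667. WT 5 alone gave 49 of the 84 reads. The exact permutation p of the TPM values was 0.0556, and without the filter on low genes limma gave a log2 fold change of -1.20 (adjusted p = 0.0749).

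To set the ligands beside each other, recovered reads were divided by the length of the main transcript and expressed per 1e+06 reads. Reads from introns may be counted, and Cxcl16 reads may include those of Zmynd15. The levels also depend on the length chosen. The main transcript had 532 bases for Ccl5 and 1109 for Cxcl2, against 960 and 2068 over all exons. On this scale Ccl5 led in both groups, at 125 ± 31.1 (SD, n = 5) in WT libraries and 383 ± 74.5 (SD, n = 4) in knockout libraries. In WT it was followed by Ccl4 at 13.9, Cxcl2 at 8.13, Ccl3 at 7.95, Cxcl9 at 1.34, Cxcl16 at 1.25 and Ccl22 at 0.472. The ranges of Ccl4 and Cxcl2, of Cxcl2 and Ccl3, of Cxcl9 and Cxcl16, and of Cxcl16 and Ccl22 overlapped. Within each WT library Ccl4 lay above Cxcl2, and Cxcl16 above Ccl22, the latter by little in WT 3 (0.493 and 0.491). The order of Cxcl2 and Ccl3 and that of Cxcl9 and Cxcl16 differed between WT libraries, so neither is settled by them. In Rig1 KO the order was Ccl4 at 9.90, Ccl3 at 5.43, Cxcl9 at 1.64, Cxcl16 at 0.490, Cxcl2 at 0.0987 and Ccl22 at 0.00721. The ranges of neighbours did not overlap, but with at most 4 reads a library the order of Cxcl2 and Ccl22 in Rig1 KO is not settled.

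**Figure D2:**
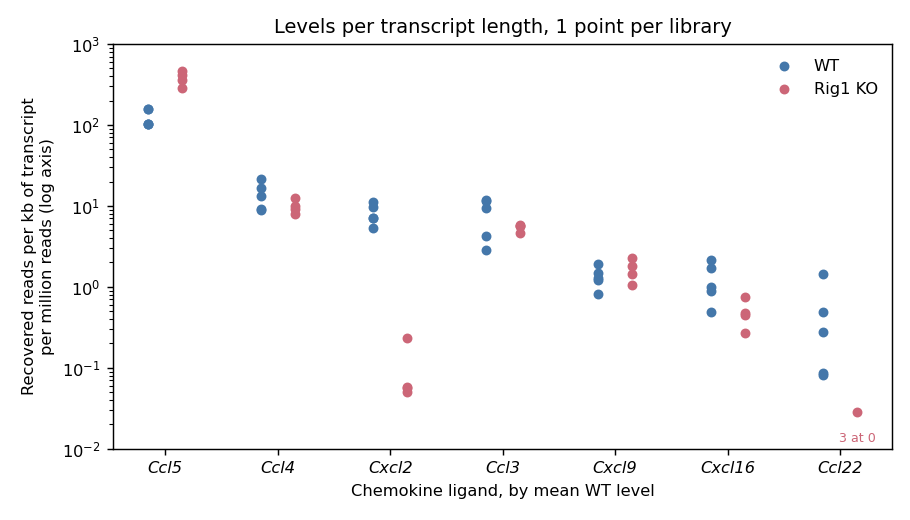
Recovered reads per kb of transcript per 1e+06 reads (log axis) of the 7 ligands, ordered by mean WT level, with 1 point per library, blue for WT (n = 5) and red for Rig1 KO (n = 4). Ccl5 lies above all other ligands in both groups, Cxcl2 lies between 5.34 and 11.3 in WT and between 0.0505 and 0.230 in Rig1 KO, and 3 Rig1 KO libraries are at 0 for Ccl22.

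Receptors of these ligands were listed as the other side of the pathway. Of 10 symbols 9 were found and 6 tested: Cxcr3, Ccr4 and Ccr3 were higher in Rig1 KO, none was lower, and Ccr1, Xcr1 and Cxcr2 did not pass. Of all tested genes, 33.5% were higher, or 2381 of 10540 after median ratio scaling. The median log2 fold change of the 6 receptors was 0.54, against 0.13 over all tested genes. The 3 calls held under each other setting in which they were tested. Cxcr3, the receptor of Cxcl9 and Cxcl10 on activated T cells, had 123, 143, 131, 155 and 148 TPM in WT 1 to WT 5 and 399, 352, 525 and 512 in Rig1 KO 1 to 4. It rose by 1.65 on the log2 scale (SE 0.12, limma adjusted p = 2.72e-06), with no overlap.

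Ccr4, which binds Ccl22, rose by 1.51, from 1.27 ± 0.241 TPM (SD, n = 5) to 5.54 ± 1.21 (SD, n = 4). Ccr3, another Ccl5 receptor, known from eosinophils and basophils, rose by 0.97, from 26.9 ± 8.09 TPM to 52.2 ± 6.99. Basophil and mast cell markers moved with it: 7 of 8 were higher in Rig1 KO, against 33.5% of all tested genes. Their summed TPM was 17.1 to 63.1 in WT and 225 to 428 in Rig1 KO. Their part in the Ccr3 result was not tested. Ccr1, another Ccl3 and Ccl5 receptor, had a log2 fold change of 0.10 (limma adjusted p = 0.812). Cxcr2, the receptor of Cxcl2, had a log2 fold change of -0.20 (SE 0.26, limma adjusted p = 0.550), while its ligand fell by 4.92.

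**Figure D3:**
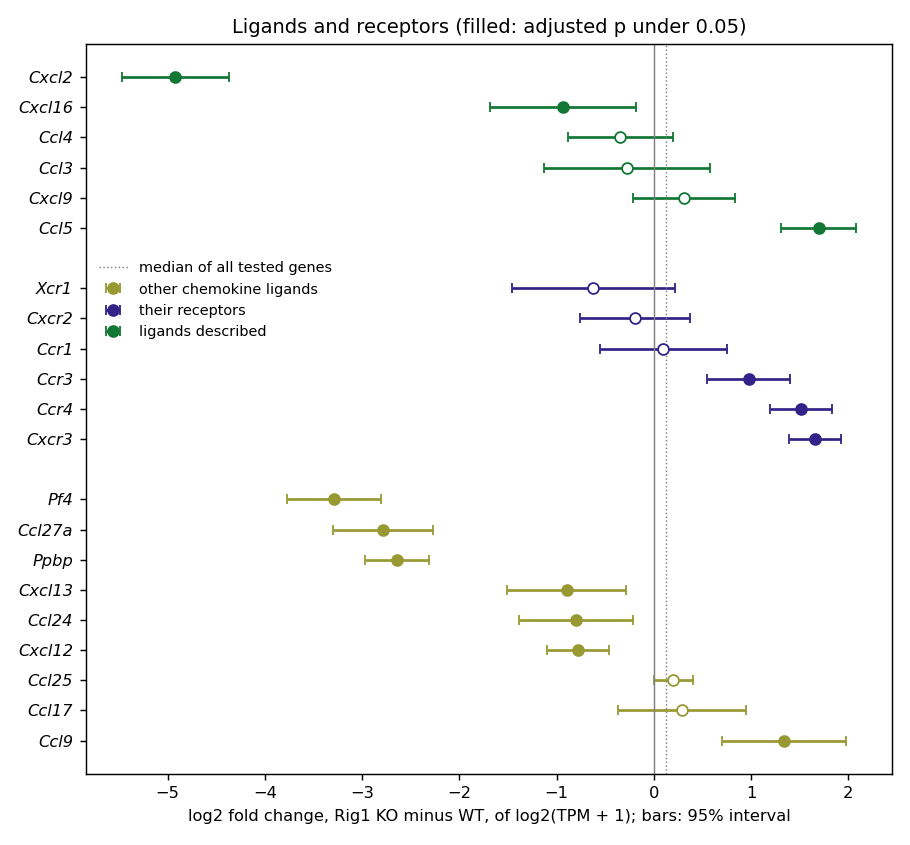
Log2 fold change, Rig1 KO minus WT, of log2(TPM + 1) (horizontal axis) for the tested ligands described here, their receptors and the other tested chemokine ligands. Points are limma estimates over 5 WT and 4 Rig1 KO libraries, bars are 95% intervals, filled points passed at an adjusted p under 0.05, and the dotted line is the median of all tested genes, 0.13. Cxcl2 (-4.92) lies farthest to the left and Ccl5 (1.69) farthest to the right, followed by Cxcr3 (1.65).

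Of the 29 other chemokine ligand symbols, 19 were found and 9 tested. There were 6 lower in Rig1 KO, 1 higher, and Ccl17 and Ccl25 did not pass, with a median log2 fold change of -0.80. Of all tested genes, 12.2% were lower, or 2384 of 10540 after median ratio scaling. Ccl9, a macrophage chemokine that binds Ccr1, rose by 1.34, from 7.42 ± 3.31 TPM (SD, n = 5) to 19.1 ± 4.25 (SD, n = 4), with a limma adjusted p of 0.00337. With the macrophage and monocyte marker covariate, in which the groups did not overlap, its change was 0.75. Pf4 and Ppbp, which platelets store, fell (log2 fold changes -3.29 and -2.64). Both belong to the platelet list and made up most of its summed TPM in WT. Of the 6 tested markers of that list, these included, 5 were lower and 1 did not pass. Ccl27a fell by 2.79, but its near-identical copies in the mouse genome make its reads uncertain. Cxcl12, Cxcl13 and Ccl24 fell as well (-0.78, -0.90 and -0.80). The last pair of calls did not hold under every setting: over all of them the highest limma adjusted p was 0.312 for Cxcl13 and 0.0943 for Ccl24.

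Among 26 cytokines and transcription factors known to induce chemokine genes, 7 were higher and 12 lower in Rig1 KO, or 4 and 13 after median ratio scaling. Of all tested genes, 33.5% were higher and 12.2% lower, or 2381 and 2384 of 10540 after that scaling. The AP-1 subunits Jun and Fos fell (log2 fold changes -3.24 and -3.29), from 1634 ± 110.1 to 172 ± 7.81 TPM and from 2353 ± 236 to 239 ± 28.2. Irf4 fell by 2.13, and Eomes, a T-box factor of memory and effector CD8+ T cells, rose by 1.12. Named after their values were seen, Ifng, the inducer of Cxcl9, fell by 1.68, from 70.2 ± 11.4 to 21.4 ± 5.13 TPM, and the NF-kB subunit gene Rel fell by 1.11. Cxcl9 itself did not pass the test in either direction.

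Of 10 genes for proteins that bind mRNAs and set their stability, through AU-rich elements or, for Regnase-1 and the Roquins, through stem-loops, 5 were lower and 3 higher in Rig1 KO, or 6 and 1 after median ratio scaling. The shares of all tested genes were 12.2% lower and 33.5% higher. Zfp36, the gene for tristetraprolin, a protein that speeds the decay of AU-rich mRNAs, fell by 1.72, from 1555 ± 131 to 469 ± 16.0 TPM. Zc3h12a, the gene for the RNase Regnase-1, fell by 2.28, and Zfp36l1 and Hnrnpd fell as well (-0.86 and -0.29). Cxcl2, the ligand with the most ATTTA, was also lower in these libraries, and a relation between them was not tested. Of 4 processing genes, Srgn, whose product serglycin holds Ccl5 and other cargo in granules, fell by 0.93 while Ccl5 rose. Adam10 (0.26), Adam17 (0.20) and Dpp4 (0.22), the last a protease that trims chemokines, rose by small amounts, and none of these 3 was higher after median ratio scaling.

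Within groups the ligands differed in which other genes they varied with. After subtracting group means, correlations over the 9 libraries were taken as a description. The points share library scaling and cell makeup, and 10298 genes were compared. The median correlation of Ccl3 with the macrophage and monocyte markers was 0.93, and with the NK and innate lymphoid markers 0.83. For Ccl4 the NK list came first, at 0.75, and the macrophage and monocyte list next, at 0.72. Cxcl16 and Cxcl2 varied with the B and plasma cell markers (medians of 0.89 and 0.87), the dendritic cell markers (0.81 and 0.76) and the neutrophil markers (0.81 and 0.74). The largest Cxcl2 deviation was that of Rig1 KO 3, from 4 reads against 1 in each other Rig1 KO library. That library also had the highest B cell marker mean of its group (5.02), so the Cxcl2 correlations rest in part on a few reads. Ccl5 had no list above 0.52. The gene nearest to Ccl3 was Blvrb (0.99), that nearest to Ccl4 was Gzma, a cytotoxic granule protease (0.98), and that nearest to Cxcl16 was Cd24a (0.97). The nearest to Ccl5, Cxcl2 and Cxcl9 were Kcnj9 (0.96), Casp4 (0.98) and Arrb1 (0.99).

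**Figure D4:**
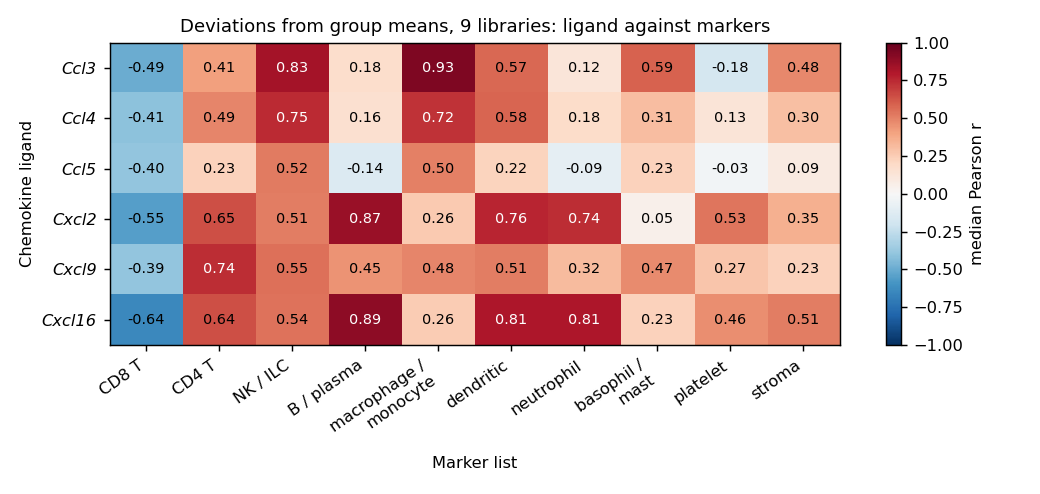
Median Pearson correlation (colour and printed value) of 6 ligands (rows) with the found markers of 10 cell type lists (columns), over deviations from the group means in 9 libraries. Ccl3 is closest to the macrophage and monocyte list (0.93), Cxcl16 and Cxcl2 to the B and plasma cell list (0.89 and 0.87), and each ligand is negative with the CD8 T cell list. The Cxcl2 values rest in part on 1 to 4 reads in each Rig1 KO library.

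The log2 fold changes of the 6 tested ligands were recomputed under 21 other settings. Ccl5 lay between 1.5 and 1.79 and Cxcl2 between -6.27 and -3.90, and both passed the test under each of the 21. Ccl3, Ccl4 and Cxcl16 moved across the threshold or across 0 in at least 1 setting.

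**Figure D5:**
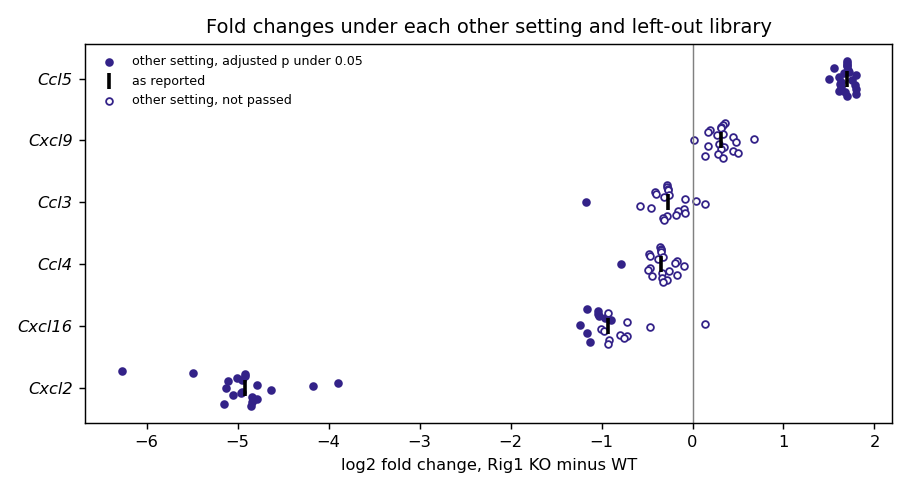
Log2 fold change, Rig1 KO minus WT (horizontal axis), of the 6 tested ligands as reported (black bar) and under each other setting, including each left-out library (points, filled where the limma adjusted p was under 0.05). All Ccl5 and Cxcl2 points are filled and on 1 side of 0, and the Cxcl16 points run from -1.24 to 0.14.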

How the data were processed

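Poly(A) RNA of 5 WT and 4 Rig1 KO libraries was measured by RNA sequencing. The authors deposited TPM values, 1 column per library per the file headers. The submitters' processing notes list fastp (a read trimmer), featureCounts (a read counter) and the build mm39 (GRCm39). The sources used here do not give the aligner, annotation, versions or strand setting.

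The reads behind the TPM values were recovered as the smallest whole numbers in each gene's ratios between libraries (relative tolerance 2e-11, 100% of genes). The gene lengths they imply lay within 1% of the genomic span for 96.6% of 17486 genes and equalled it for all 7 ligands. These reads give a lower bound of the depth and were not used for the main test.

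The filter kept 10540 genes that reached 1 TPM in 4 or more libraries. Their log2(TPM + 1) values entered limma's moderated linear model (version 3.58.1, R 4.3.3) with the trend option and no covariate. Its 2-sided p-values were adjusted by Benjamini-Hochberg across those 10540 genes, and 0.05 was the threshold. Fold changes are Rig1 KO minus WT on that scale and understate the change of low genes. Exact permutation tests were 2-sided. The read recovery and the limma fit were tested on simulated data. Gene names, lengths and sequences came from GENCODE M21 and RefSeq (both GRCm38), an older build than the authors', and 4 of the 7 ligands had a RefSeq promoter. Correlations, promoters and markers used Python 3.11.15.

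The ligands, lists, tests and alternatives were chosen with earlier results of these data known. The alternatives were other pseudocounts, filters, scalings and lengths, a replicate block, marker covariates and left-out libraries. The rule for names allowed the ligands, their receptors, the other chemokine ligands, the 4 genes with the smallest p of each other list, defining markers and, per ligand, the 3 genes nearest by group-centred correlation. Other names (S100a9, Elane, Jchain, Ifng, Rel) were chosen after their values were seen. The planned ratios with Xcl1 and Cxcl10 were not run, since those genes were not analysed here. Some genes of the planned lists are not reported here and were left out of the list counts.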

Additional observations from a re-analysis of the deposited data

Results flagged for a closer look

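In 2 of 18 groups of ligand values, 1 library lay farther from the others than Dixon's test allows at the 95% level. Chance flags about 1 group in 20 of normal, continuous values, which counts of a few reads are not. Rig1 KO 3 had the highest Cxcl2 of its group, 1.51 TPM from 4 reads, against 1 read in each of the other Rig1 KO libraries. Rig1 KO 3 also had the highest Ccl22, 0.127 TPM from 1 read, against 0 in the others, where any read in 1 library gives a flag. Both values lay below every WT library.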

How the results depend on the processing

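The count of ligands higher in Rig1 KO was 1 under all 21 other settings. The count of lower ligands was 2 as reported. It was 1 with no filter on low genes, with only genes averaging 5 TPM or more (where Cxcl16 was not tested), with the B cell marker covariate and without WT 4 and WT 5. It was 4 with the macrophage and monocyte marker covariate, which was chosen after seeing the data and did not overlap between the groups. It was 1 to 2 when libraries were left out in turn. With the replicate block it was 1: Cxcl16 had a log2 fold change of -0.72 (adjusted p = 0.108). Deviations from the group means of same-numbered libraries had correlations of 0.097, -0.060, -0.0996 and -0.072, against -0.16 to 0.15 for the other pairs. They gave no sign of pairing by number but cannot exclude it. The block called 4777 genes in place of 4817, and WT 5 formed a block of its own.

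Ccl3 turned positive with the B cell marker covariate (0.034) and without WT 4 and WT 5 (0.14), and Cxcl16 with that covariate (0.14). In that covariate only Rig1 KO 3 lay within the WT range. The Ccl3 to Ccl4 difference ran from -0.11 (without WT 1) to 0.27 with 1 library left out, and was -0.052 without Rig1 KO 3. The cause was not tested. The Ccl5 to Ccl4 difference stayed between 1.97 and 2.13. Without any 1 WT library its adjusted p was 0.0571. With 4 against 4 libraries that is the smallest possible, given the large p of the Ccl3 to Ccl4 ratio. The Ccl22 permutation p was 0.0286 without any 1 WT library, the smallest that 4 against 4 libraries allow. It was 0.161 without any 1 Rig1 KO library. These runs were added after seeing the data. With 1 to 4 reads, Cxcl2 and Ccl22 levels in Rig1 KO are limited by depth.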
